A study of Mus musculus with 24 samples.

Results

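The NF-kB transcription factors and the proteins that hold them back were followed through 10 genes: the subunits Nfkb1, Nfkb2, Rel and Relb, the IkB-type inhibitors Nfkbia, Nfkbie and Nfkbiz, and the feedback regulators Tnfaip3, Traf1 and Birc3. Every spot that was no control and carried one of these names on the array was taken, which gave 15 spots and 14 probes for the 10 genes, out of 59305 spots, 55681 probes and 24029 named genes. All 10 were measured, and all 10 passed the filter on dim probes in every comparison. RNA came from C57BL/6 male mice aged 10 weeks and was hybridised to 1-colour Agilent arrays, 4 per group. The 6 groups were tumour-associated macrophages (TAM) taken 14 days after sepsis was induced, TAM of naive mice, naive marrow cultures given IFN-γ (50 ng/mL) with LPS (10 ng/mL) on day 3 (M1), naive marrow cultures given IL-10 (20 ng/mL) on day 3 (M2), unpolarised marrow cultures of post-sepsis mice (M0 post-sepsis) and unpolarised marrow cultures of naive mice (M0 naive). All marrow cultures grew for 7 days in medium with 20% L929 supernatant and 10% FBS. For M0 post-sepsis, too, the labels gave 14 days after sepsis. TAM were cells that adhered within an hour after a Percoll gradient, and the labels named neither the tumour nor the way sepsis was induced. The submitters ran 3 experiments for TAM and chose the 4 best of 12 samples per group by absorbance ratios, and ran 2 experiments for the cultures and again kept the best 4. No label tied a sample to its experiment or animal, so p-values measure the spread between these chosen samples.

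NF-kB factors are dimers of Rel-family proteins. In the canonical arm, receptors such as those for LPS and TNF activate IkB kinases, the IkB proteins are degraded, and dimers with Rel or Rela enter the nucleus. In the noncanonical arm, the product of Nfkb2 is processed and acts with Relb. Nfkbia, Nfkbie, Tnfaip3, Traf1 and Birc3 are themselves known target genes, so that their transcripts rise when the pathway is active and their products then limit or shape the signal. In macrophages the pathway is known for driving cytokines, chemokines and survival genes.

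Promoter sequences were read from RefSeq (GRCm38.p6) for 7 of the 10 genes, which had 10 start sites between them. Nfkb1, Relb and Nfkbiz were not among them. In the 250 bases before each start site, the kB consensus motif of NF-kB dimers was searched on both strands. It was found before 7 of the 10 start sites and in 5 of the 7 genes, against 3.90% of 32851 promoters of the same length. The sequences are printed to show where the matches lay in the 5 genes that held any, with Traf1 beside them as the gene with the largest change of the 10. Capitals mark letters inside a consensus match, and each run goes 5′ to 3′ on the strand of the gene. The windows were chr19:46304487-46304736 (plus strand) for Nfkb2, chr11:23770970-23771219 (minus) for Rel, chr12:55492648-55492897 (minus) for Nfkbia, chr17:45555450-45555699 (plus) for Nfkbie, chr10:19015411-19015660 (minus) for Tnfaip3 and chr2:34961773-34962022 (minus) for Traf1. The other 2 Nfkb2 start sites each held 1 match, and the windows of Birc3 and of the other Tnfaip3 start held none, as did that of Traf1. The match in Nfkbia began 29 bases before the start site and that in Nfkbie 106 bases before it. A match describes letters and does not show binding.
Nfkb2: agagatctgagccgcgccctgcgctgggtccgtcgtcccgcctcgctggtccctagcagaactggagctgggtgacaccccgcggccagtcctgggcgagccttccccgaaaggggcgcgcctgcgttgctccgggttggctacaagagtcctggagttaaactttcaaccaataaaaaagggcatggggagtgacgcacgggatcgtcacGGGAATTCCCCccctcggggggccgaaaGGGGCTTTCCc
Rel: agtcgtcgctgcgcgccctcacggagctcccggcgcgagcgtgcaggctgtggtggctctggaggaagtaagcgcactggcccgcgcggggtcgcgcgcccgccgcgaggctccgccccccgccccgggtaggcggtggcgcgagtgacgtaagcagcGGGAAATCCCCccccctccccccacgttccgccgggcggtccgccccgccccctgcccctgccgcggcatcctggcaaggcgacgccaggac
Nfkbia: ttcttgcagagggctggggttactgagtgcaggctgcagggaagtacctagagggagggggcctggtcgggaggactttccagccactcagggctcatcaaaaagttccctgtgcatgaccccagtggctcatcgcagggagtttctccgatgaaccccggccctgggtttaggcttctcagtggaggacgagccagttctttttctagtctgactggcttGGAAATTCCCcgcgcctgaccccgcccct
Nfkbie: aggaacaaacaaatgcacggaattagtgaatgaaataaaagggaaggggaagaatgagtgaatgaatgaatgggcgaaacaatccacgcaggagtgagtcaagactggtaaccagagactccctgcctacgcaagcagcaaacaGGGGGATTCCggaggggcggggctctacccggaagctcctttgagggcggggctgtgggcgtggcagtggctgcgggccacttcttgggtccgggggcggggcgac
Tnfaip3: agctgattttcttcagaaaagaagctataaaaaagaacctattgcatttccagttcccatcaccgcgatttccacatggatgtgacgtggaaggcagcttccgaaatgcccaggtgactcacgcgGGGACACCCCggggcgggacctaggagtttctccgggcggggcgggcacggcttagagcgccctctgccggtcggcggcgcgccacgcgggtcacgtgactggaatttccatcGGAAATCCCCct
Traf1: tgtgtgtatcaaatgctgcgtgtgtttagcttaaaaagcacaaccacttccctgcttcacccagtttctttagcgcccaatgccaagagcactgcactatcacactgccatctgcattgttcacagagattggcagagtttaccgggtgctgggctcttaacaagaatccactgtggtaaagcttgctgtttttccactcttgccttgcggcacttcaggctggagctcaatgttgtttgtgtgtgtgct

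Of the 24 arrays, 23 were used, and 57.4% to 70.0% of their spots were well above background. TAM naive replicate 2, which the submitters excluded for scarce RNA of low quality, had 41.9% and was left out. Array pairs within a group correlated at 0.898 to 0.991. The arrays lay on 3 slides of 8. A level here is the log2 of a probe's processed intensity relative to the 75th percentile of its array, and levels are compared between groups for the same gene only. All 9 macrophage markers were above background on every array of every group. Their summed level, relative to the 75th percentile, ran from 61.6 to 197 in TAM post-sepsis, from 207 to 374 in TAM naive and from 695 to 1771 in the 4 culture groups. All 5 melanocyte markers were above background on every TAM array, with a summed level of 1541 to 2037 in TAM post-sepsis and 1592 to 2108 in TAM naive, against 0.344 to 1.24 in the cultures. The 5 fibroblast markers summed to 214 to 1039 in TAM post-sepsis and 203 to 845 in TAM naive, against at most 3.04 in the cultures. In such bulk samples fewer cells of a type and less RNA per cell cannot be told apart.

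**Figure D1:**
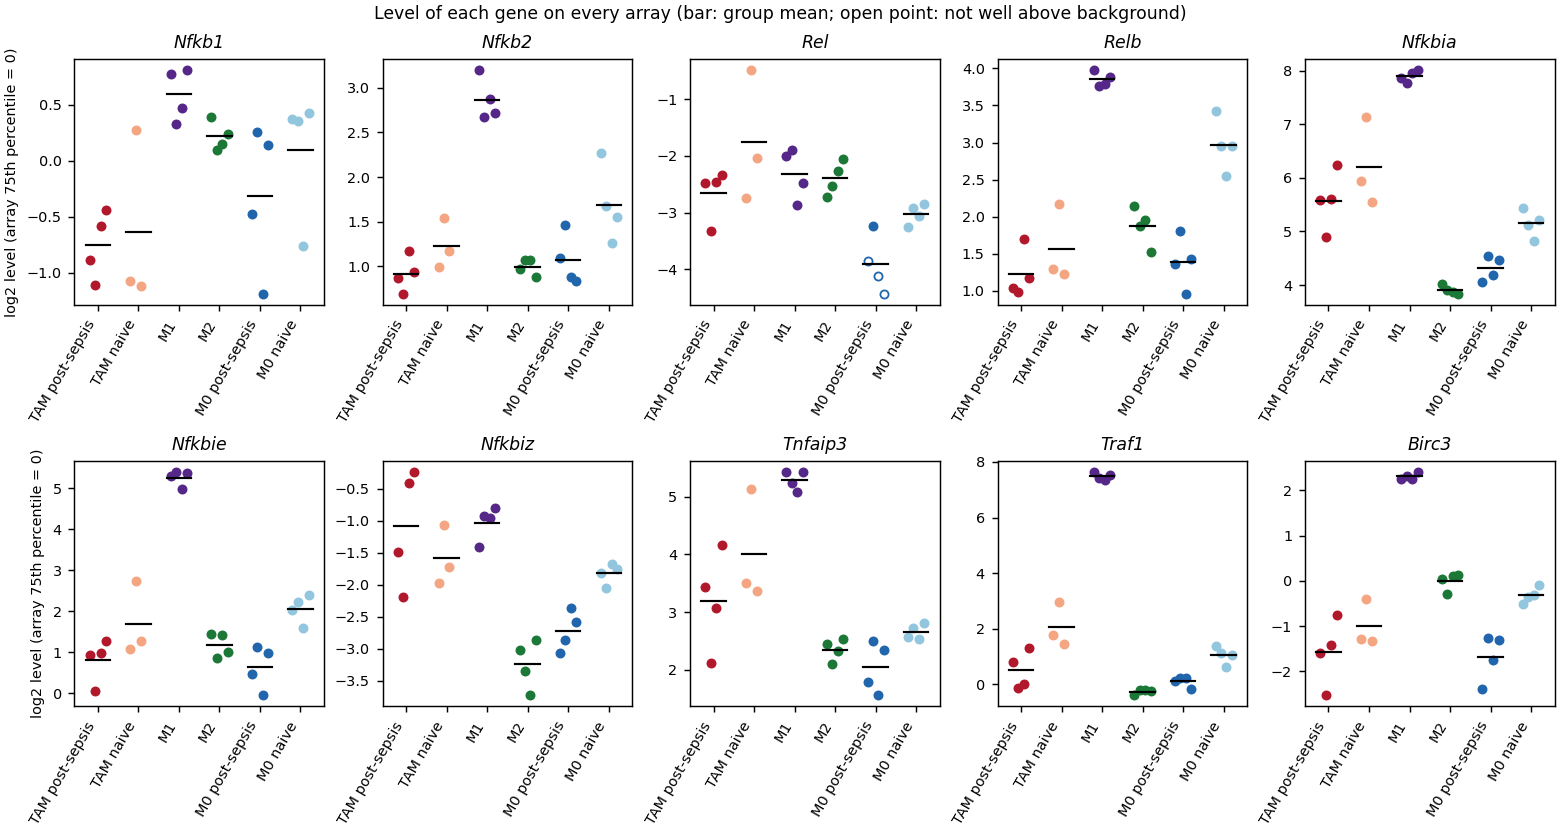
Level of each of the 10 genes on every array used, as log2 of processed intensity relative to the array's 75th percentile (y axis, a log scale), by group (x axis), with bars at group means and open points for signals not well above background. The 4 Traf1 values in M1, from 7.35 to 7.64, stand apart from all other arrays, and the 3 open points for Rel are M0 post-sepsis arrays.

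The first comparison asked how the genes responded to IFN-γ with LPS. In M1 cultures, 8 of the 10 genes rose relative to M0 naive cultures and none fell, where 13.1% of all genes tested rose and 14.7% fell. All 3 inhibitors and all 3 feedback regulators rose, while of the 4 subunits only Nfkb2 and Relb passed the test. The rises ran from 1.74-fold for Nfkbiz to 87.0-fold for Traf1, and each of the 8 genes measured higher in M1 within each of the 3 slides. The summed macrophage markers ran from 1074 to 1200 in M1 and from 1487 to 1771 in M0 naive, and those of neutrophils from 280 to 580 in M1 and from 299 to 857 in M0 naive, with 5 of 7 neutrophil markers lower and 1 higher. The 7 dendritic cell markers summed to 3.84 to 5.09 in M1 and 0.91 to 2.16 in M0 naive, without overlap, and 2 of the 3 tested were higher, while Cd209a, Xcr1, Clec9a and Itgae were above background on no array of either group. The part of these markers in the result was not tested.

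Among the subunits, Nfkb2, which encodes the p100 precursor of the noncanonical arm, had levels of 3.20, 2.67, 2.87 and 2.72 in M1, against 2.27, 1.68, 1.26 and 1.55 in M0 naive. The groups did not overlap, and the rise was 1.17 ± 0.22 log2 units (± SE of the limma fit, n = 4 arrays each, adjusted p = 0.000575). Relb, its partner subunit, had levels of 3.97, 3.76, 3.79 and 3.88 in M1, against 3.43, 2.96, 2.55 and 2.96 in M0 naive. The rise was 0.88 ± 0.22 (adjusted p = 0.00569), with the lowest M1 array above the highest M0 naive array. The Relb call was lost when all 3 probes named Relb were averaged (0.43, adjusted p = 0.0687, where its adjusted p ran from 0.00202 to 0.0687 over 16 alternatives), since the probe at chr7:20203058-20203117 (mm9) measured -0.39 while the other 2 measured 0.88 and 0.81. Nfkb1, which encodes p105 and p50, differed by 0.50 ± 0.32 with a 95% interval of -0.18 to 1.17 (adjusted p = 0.320). Rel, the c-Rel subunit, differed by 0.71 ± 0.27 with an interval of 0.13 to 1.28 (adjusted p = 0.0651), and it passed with slide as a block (0.78, adjusted p = 0.0388) and without M1 replicate 3 (0.89, adjusted p = 0.0243).

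Among the inhibitors, Nfkbia encodes IkB-alpha, the main cytoplasmic brake. Its levels were 7.86, 7.78, 7.96 and 8.01 in M1, against 5.44, 5.13, 4.82 and 5.22 in M0 naive, so that the closest arrays lay more than 2 log2 units apart. The rise was 2.75 ± 0.17, or 6.73-fold (adjusted p = 5.41e-09). Nfkbie, which encodes IkB-epsilon, had levels of 5.31, 5.40, 4.97 and 5.36 in M1, against 2.03, 2.24, 1.59 and 2.40 in M0 naive. It rose by 3.20 ± 0.26, or 9.17-fold (adjusted p = 1.42e-07), the largest rise of the 3. Nfkbiz encodes the nuclear protein IkB-zeta, which promotes as well as limits transcription. Its levels of -1.41, -0.93, -0.96 and -0.80 in M1 lay just above the -1.82, -2.05, -1.67 and -1.75 of M0 naive, a rise of 0.80 ± 0.22 (adjusted p = 0.0117) that lost its call when all 23 arrays shared the fit (adjusted p = 0.0891, range 0.00753 to 0.0891 over 16 alternatives).

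Among the feedback regulators, Tnfaip3 encodes A20, which edits ubiquitin on signalling proteins. Its levels ran from 5.07 to 5.43 in M1 and from 2.54 to 2.80 in M0 naive, with no overlap. The rise was 2.63 ± 0.21, or 6.18-fold (adjusted p = 9.35e-08). Traf1 encodes a TRAF adaptor that joins TNF-receptor signalling complexes. Its probe at chr2:34798882-34798941 (mm9) gave 7.64, 7.43, 7.35 and 7.53 in M1, against 1.38, 1.12, 0.62 and 1.06 in M0 naive. That is a rise of 6.44 ± 0.17, with a 95% interval of 6.07 to 6.82 (adjusted p = 1.49e-12), and the lowest M1 array was nearly 6 log2 units above the highest M0 naive array. Within slides 1, 2 and 3 the difference was 6.31, 6.80 and 6.06. Birc3 encodes the ubiquitin ligase cIAP2, and its levels were 2.25, 2.32, 2.26 and 2.41 in M1, against -0.50, -0.35, -0.31 and -0.10 in M0 naive. The rise was 2.62 ± 0.22, or 6.16-fold (adjusted p = 1.99e-07), and the other Birc3 probe measured a rise of 1.57.

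Set against M2 cultures in place of M0 naive, the same count held. In M1, 8 of the 10 genes measured higher than in M2 and none lower, where 15.5% of all genes tested were higher and 15.4% lower. The 8 differences passed under all 16 alternatives and ran from 1.87 for Nfkb2 to 7.75 ± 0.17 for Traf1, which is 215-fold (adjusted p = 1.29e-13). Nfkbie differed by 4.08 ± 0.26 and Nfkbia by 4.00 ± 0.17, or 16.9-fold and 15.9-fold. Nfkb1 differed by 0.37 ± 0.31 (adjusted p = 0.436). Rel differed by 0.08 ± 0.27, with an interval of -0.49 to 0.65 (adjusted p = 0.869), and the M1 and M2 arrays of Rel overlapped over most of their range.

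The second comparison asked what IL-10 did to the same genes. In M2 cultures, 5 of the 10 fell relative to M0 naive and none rose, where 7.04% of all genes tested fell and 4.88% rose. All 3 inhibitors were among the 5, with Relb and Traf1, and each of the 5 measured lower in M2 within each of the 3 slides. Of 7 neutrophil markers 4 were lower in M2 and none higher, with summed levels of 241 to 606 in M2 and 299 to 857 in M0 naive, and of 9 macrophage markers 3 were lower, with sums of 1380 to 1601 in M2 and 1487 to 1771 in M0 naive. Their part in the result was not tested. Both comparisons use the same 4 M0 naive arrays, so their values for a gene are not independent.

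Relb measured 2.15, 1.87, 1.96 and 1.53 in M2, all below the lowest M0 naive array at 2.55. The fall was -1.10 ± 0.22 (adjusted p = 0.00322). Nfkbia had levels of 4.02, 3.91, 3.86 and 3.84 in M2, a narrow range below all 4 M0 naive arrays, and fell by 1.25 ± 0.17 on the log2 scale, or 2.37-fold (adjusted p = 0.000106). Nfkbiz had -3.02, -3.34, -3.73 and -2.87 in M2 and fell by 1.42 ± 0.22, or 2.67-fold (adjusted p = 0.000421). Traf1 had -0.39, -0.19, -0.20 and -0.26 in M2 and fell by 1.31 ± 0.17, or 2.48-fold (adjusted p = 0.000100). Nfkbie differed least of the 5, at -0.88 ± 0.26 (adjusted p = 0.0385). Its call was lost under 9 of 16 alternatives, with adjusted p up to 0.118, among them leaving out M2 replicate 2 (adjusted p = 0.110), 3 (0.0562) or 4 (0.102), or M0 naive replicate 1 (0.0756), 2 (0.111) or 4 (0.118). For the genes below the threshold, Nfkb2 differed by -0.70 ± 0.22 (adjusted p = 0.0506) and passed under 6 alternatives, one of them leaving out M0 naive replicate 3 (-0.84, adjusted p = 0.0206). Rel measured 0.63 ± 0.27 above M0 naive (adjusted p = 0.164), with its 4 M2 arrays above all 4 M0 naive arrays. Nfkb1 at 0.12, Tnfaip3 at -0.31 and Birc3 at 0.31 had adjusted p between 0.409 and 0.866.

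**Figure D2:**
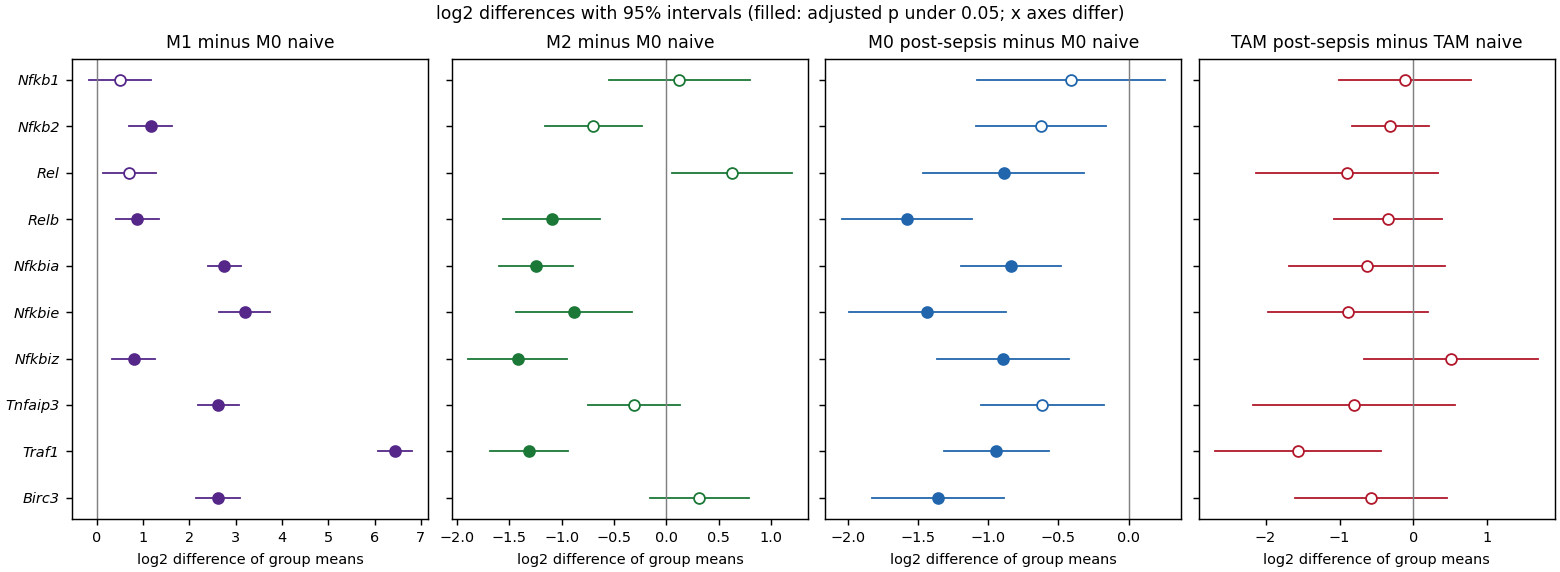
Differences of group means for the 10 genes (rows) on the log2 scale (x axis, ranges differ between panels), with 95% intervals of the limma fit and filled points where the adjusted p was under 0.05. M1 minus M0 naive has 8 filled points to the right of 0, M2 and M0 post-sepsis have 5 and 7 to the left, and TAM post-sepsis minus TAM naive has none.

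The third comparison asked whether unpolarised macrophages grown from the marrow of post-sepsis mice differed from those of naive mice. In M0 post-sepsis cultures 7 of the 10 genes measured lower and none higher, where 5.91% of all genes tested were lower and 5.99% higher. The 7 were Rel and Relb, all 3 inhibitors, Traf1 and Birc3. The changes ran from -0.84 for Nfkbia to -1.58 for Relb. This comparison shares the M0 naive arrays with the M1 and M2 comparisons.

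Relb had levels of 1.37, 1.81, 0.96 and 1.43 in M0 post-sepsis, against 3.43, 2.96, 2.55 and 2.96 in M0 naive. The groups lay apart, and Relb fell by 1.58 ± 0.22, or 2.99-fold (adjusted p = 0.000139). Birc3 had -2.38, -1.27, -1.74 and -1.29 in M0 post-sepsis, against -0.50, -0.35, -0.31 and -0.10 in M0 naive, and fell by 1.36 ± 0.22 (adjusted p = 0.000578). Nfkbie had 0.47, 1.12, -0.05 and 0.98 in M0 post-sepsis, and fell by 1.43 ± 0.26, or 2.70-fold (adjusted p = 0.00145). Traf1 had 0.11, 0.24, 0.21 and -0.15, all below the lowest M0 naive array at 0.62, and fell by 0.94 ± 0.17 (adjusted p = 0.00168). For Nfkbia and Nfkbiz, too, the post-sepsis arrays lay below all naive arrays. Nfkbia fell by 0.84 ± 0.17 (adjusted p = 0.00307) and lost its call only when all 23 arrays shared the fit (adjusted p = 0.0624). Nfkbiz fell by 0.89 ± 0.22 (adjusted p = 0.0134) and lost it in that fit (0.101) and after normexp background correction (-0.35, adjusted p = 0.322).

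Rel was well above background on only 1 of the 4 M0 post-sepsis arrays, at -3.24, and dim on the other 3, at -3.86, -4.11 and -4.43, against -3.26, -2.91, -3.06 and -2.85 in M0 naive. Its change of -0.89 ± 0.27 (adjusted p = 0.0423) is therefore of uncertain size, and it lost the call under 12 of 16 alternatives (adjusted p up to 0.662), among them leaving out M0 post-sepsis replicate 1 (0.0755), 3 (0.0952) or 4 (0.111), or M0 naive replicate 2 (0.111), 3 (0.0723) or 4 (0.120). The 3 genes below the threshold had the same sign. Nfkb2 measured -0.62 ± 0.22 (adjusted p = 0.0836), Tnfaip3 -0.61 ± 0.21 (0.0708) and Nfkb1 -0.41 ± 0.32 (0.577). Without M0 post-sepsis replicate 2, both Nfkb2 (-0.76, adjusted p = 0.0386) and Tnfaip3 (-0.77, adjusted p = 0.0212) passed, and 9 of the 10 genes were then called. Nfkb2 also passed without M0 naive replicate 3 (-0.77, adjusted p = 0.0347) and Tnfaip3 without M0 post-sepsis replicate 4 (-0.71, adjusted p = 0.0475), and both passed after quantile normalization (adjusted p = 0.0188 and 0.00696). Slide 1 held no M0 post-sepsis array. Within slides 2 and 3, Relb differed by -1.59 and -1.81, Nfkbie by -1.79 and -0.98, Birc3 by -1.86 and -0.78, Traf1 by -0.68 and -1.34, and Nfkbia by -0.90 and -0.93. Nfkbiz and Rel also measured lower in M0 post-sepsis on both slides. With slide as a block 6 of the 10 were called, since Rel was lost (adjusted p = 0.0698). The summed macrophage markers moved with these genes, at 695 to 1121 in M0 post-sepsis and 1487 to 1771 in M0 naive, and 6 of the 9 fell. The neutrophil markers ran from 171 to 415 in M0 post-sepsis and from 299 to 857 in M0 naive, with 4 of 7 lower and 1 higher. The part of either in the result was not tested.

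The fourth comparison asked the same of the samples labelled TAM, in which melanocyte and fibroblast markers were also high, as given above. In TAM post-sepsis, none of the 10 genes passed the test against TAM naive, and neither did any other of the 28911 genes tested (0% higher and 0% lower), although 10963 genes had an unadjusted limma p under 0.05. Of the 10 genes, 9 measured lower in TAM post-sepsis, by 0.12 to 1.56 log2 units, and Nfkbiz measured 0.51 ± 0.51 higher. Only Traf1 had an unadjusted p under 0.05.

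Traf1 had levels of 0.81, -0.13, 0.02 and 1.30 in TAM post-sepsis, against 1.77, 2.97 and 1.45 in TAM naive. It was the only one of the 10 whose arrays did not overlap, as was so for 12.6% of all genes in the lower direction. The difference was -1.56 ± 0.48, with an interval of -2.69 to -0.44 (adjusted p = 0.113, n = 4 and 3). On slides 1, 2 and 3 the differences were -1.92, -1.43 and -1.90. Relb had 1.03, 0.99, 1.70 and 1.17 in TAM post-sepsis and 1.29, 2.18 and 1.23 in TAM naive, and its difference of -0.34 ± 0.31 had an interval of -1.07 to 0.38 (adjusted p = 0.419). Nfkbie at -0.88 ± 0.47, Rel at -0.90 ± 0.53, Tnfaip3 at -0.80 ± 0.59 and Nfkbia at -0.63 ± 0.45 had adjusted p of 0.190 to 0.321, and their arrays overlapped.

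TAM naive replicate 3, on slide 1, had the highest TAM level of 9 of the 10 genes, Nfkbiz being the exception. It reached 7.14 for Nfkbia and 5.14 for Tnfaip3, where the other TAM naive arrays had 5.95 and 5.54, and 3.50 and 3.36. With slide as a block, 4 of the 10 genes measured lower and none higher, where 26.8% of all genes were lower and 8.14% higher. They were Traf1 (-1.77 ± 0.22, adjusted p = 0.0107), Nfkbie (-1.04 ± 0.29, 0.0326), Tnfaip3 (-1.04 ± 0.30, 0.0380) and Rel (-1.07 ± 0.33, 0.0435). In the blocked fit without TAM naive replicate 3, an alternative added after seeing the data, no gene passed, and Traf1 measured -1.66 (adjusted p = 0.0768, where its adjusted p ran from 0.0107 to 0.346 over 17 alternatives). Slide 1 then held no TAM naive array, so the contrast rested on 1 array of each group on slides 2 and 3. That is too few to read the lost calls. Traf1 also passed when all 23 arrays shared the fit (adjusted p = 0.0220). Leaving out TAM post-sepsis replicate 2, which had the lowest TAM level of every gene but Nfkb1, gave 9792 called genes and none of the 10. Markers of other leukocytes moved with the tumour arrays. The summed level of 8 B cell markers ran from 3.12 to 10.4 in TAM post-sepsis and from 16.6 to 48.4 in TAM naive, without overlap. That of 7 dendritic cell markers ran from 2.67 to 9.17 in TAM post-sepsis and from 15.9 to 54.9 in TAM naive. The macrophage sum given above was also lower on every TAM post-sepsis array, but the 9 markers did not fall as a set. Their median difference was 0.25, and 0.17 with slide as a block, where 3 were called lower and none higher. The 7 neutrophil markers summed to 167 to 579 in TAM post-sepsis and 503 to 1017 in TAM naive, which overlapped, and with slide as a block 4 of the 7 were called lower and none higher. The B cell gene Blk and the dendritic cell genes Xcr1 and Itgae were above background on no array of either group. The 10 T and NK cell markers summed to 14.1 to 46.1 in TAM post-sepsis and 21.7 to 52.7 in TAM naive, which overlapped. Of the 7 that were tested, 5 had an unadjusted p under 0.05, and their median difference was -1.98, beside -2.08 for the B cell and -1.96 for the dendritic cell markers. With slide as a block 6 of these 7 were called lower and none higher, as were 7 of 7 B cell and 4 of 5 dendritic cell markers. TAM naive replicate 3 was also the highest TAM array for the B cell, dendritic cell and T and NK cell sums. The part of these cells in the differences was not tested.

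**Figure D3:**
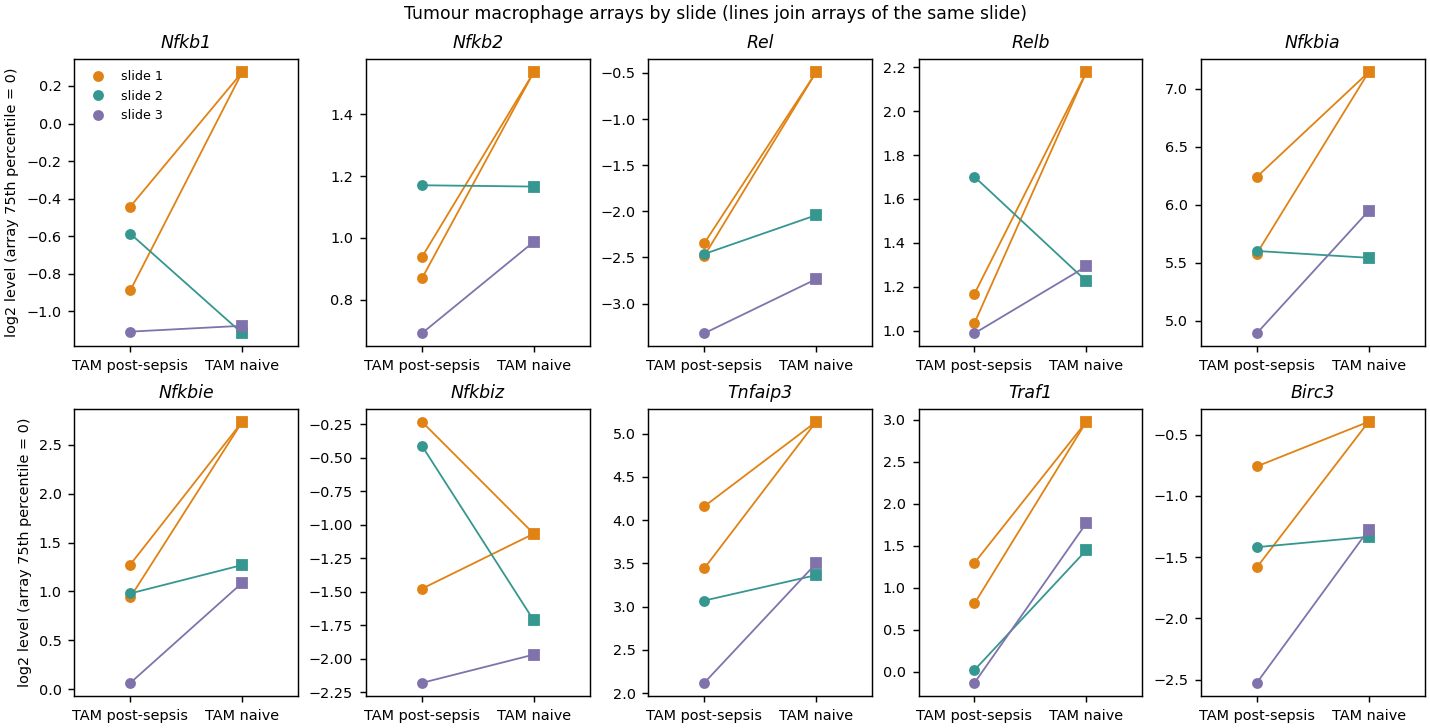
Levels of the 10 genes on the 7 tumour arrays used, as log2 of processed intensity relative to the array's 75th percentile (y axis), for TAM post-sepsis at the left and TAM naive at the right of each panel, with colours for the 3 slides and lines joining arrays of the same slide. The Traf1 lines run upward to TAM naive on all 3 slides (differences of -1.92, -1.43 and -1.90 for post-sepsis minus naive), and the slide 1 naive array is the highest for 9 genes.

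Whether sepsis changed the genes differently in tumours and in marrow cultures was tested as an interaction over the 23 arrays. Relb alone passed, with a sepsis effect in TAM that lay 1.24 ± 0.36 above that in M0 (adjusted p = 0.0462), where 3.59% of all genes were higher and 2.34% lower. Its own effects were -0.34 in TAM and -1.58 in M0. The call was lost under 16 of 24 alternatives, with adjusted p up to 0.163, among them leaving out any of TAM post-sepsis replicates 1, 3 and 4, TAM naive replicates 1 and 4, M0 post-sepsis replicates 1 and 3, and M0 naive replicates 1, 2 and 4 (adjusted p from 0.0606 to 0.144). Nfkbiz lay 1.40 ± 0.49 above (adjusted p = 0.0913), its effects being 0.51 in TAM and -0.89 in M0, and passed without TAM post-sepsis replicate 2 (1.77, adjusted p = 0.0116). For Traf1 the difference of effects was -0.62 ± 0.44, with an interval of -1.55 to 0.31.

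TAM naive and M0 naive differ in tissue, isolation and culture, and 5 of the 10 genes were called between them. Rel, Nfkbia, Tnfaip3 and Traf1 measured higher in TAM naive and Relb lower, where 15.1% of all genes were higher and 20.5% lower. Counts out of 10 genes can lie near such shares. Relb had 1.29, 2.18 and 1.23 in TAM naive and at least 2.55 in M0 naive. The difference was -1.41 ± 0.26 (adjusted p = 0.000190) and passed under all 16 alternatives. However, the Relb probe at chr7:20203058-20203117 (mm9) measured -0.07 here, and the remaining unused Relb probe -1.48. Tnfaip3 measured 1.34 ± 0.40 higher (adjusted p = 0.0116), Rel 1.26 ± 0.40 (0.0168), Nfkbia 1.06 ± 0.31 (0.00917) and Traf1 1.02 ± 0.33 (0.0182). Within slides 1, 2 and 3 the difference was -0.78, -1.53 and -2.14 for Relb, 2.42, 0.91 and 0.52 for Rel, and 1.85, 0.61 and 0.39 for Traf1. The 4 higher calls were lost without TAM naive replicate 3, which left only TAM naive replicates 1 and 4. All 4 were also lost with the excluded array kept in (adjusted p from 0.121 to 0.48). With only the arrays of these groups in the fit, Rel (adjusted p = 0.0737), Nfkbia (0.0645) and Traf1 (0.0744) were lost. Rel was lost under quantile normalization as well (adjusted p = 0.130). Without replicate 3, Tnfaip3, Rel, Nfkbia and Traf1 differed by 0.77, 0.63, 0.59 and 0.56, with adjusted p of 0.128, 0.180, 0.109 and 0.177. Nfkb1 (-1.19, adjusted p = 0.0147) and Birc3 (-0.99, adjusted p = 0.0366) were then called lower. Over all TAM naive arrays used, the other Birc3 probe measured 0.005, against -0.69 for the probe used. Nfkb1 and Nfkb2 were also called lower without M0 naive replicate 3 (-1.02 and -0.61, adjusted p = 0.0270 and 0.0402). The other cells in the tumour RNA, given above, move with this comparison, and their part was not tested.

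The order of the groups differed between the genes. With the probes used, M1 had the highest mean for 9 of the 10 genes. The exception was Rel, whose highest mean was in TAM naive at -1.76 ± 1.15 (SD, n = 3), overlapping M1 at -2.31 ± 0.45 (SD, n = 4), M2 at -2.39 ± 0.29 and TAM post-sepsis at -2.65 ± 0.45. For Nfkb2, Relb, Nfkbia, Nfkbie, Traf1 and Birc3, the M1 arrays lay above the arrays of the next group. For Tnfaip3, M1 at 5.29 ± 0.17 overlapped TAM naive at 4.00 ± 0.99, and for Nfkbiz, M1 at -1.03 ± 0.27 overlapped TAM post-sepsis at -1.08 ± 0.92. The lowest mean was in M2 for Nfkbia (3.91 ± 0.08), Nfkbiz (-3.24 ± 0.38) and Traf1 (-0.26 ± 0.09), in M0 post-sepsis for Rel, Nfkbie, Tnfaip3 and Birc3, and in TAM post-sepsis for Nfkb1, Nfkb2 and Relb. Below M1, neighbouring groups overlapped throughout for Nfkb2, Nfkbie and Birc3, and for Nfkb1 M1 overlapped M2 as well. For Traf1 the order was M1, TAM naive, M0 naive, TAM post-sepsis, M0 post-sepsis and M2, with overlap only between M0 naive and TAM post-sepsis and between TAM post-sepsis and M0 post-sepsis. Quantile normalization kept each order except for Nfkbiz, where TAM naive and M0 naive changed places.

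The genes also differed in how alike they ran over the 23 arrays. Their 45 pairs had Pearson correlations from -0.0059, for Nfkb1 with Nfkbiz, to 0.958, for Nfkbia with Tnfaip3, with a median of 0.678. The points share the groups, in particular the 4 M1 arrays, so the values are a description. Rel was at most 0.641 with any other of the 10. Among 16644 other genes, the nearest profile was that of Fpr1, a formyl peptide receptor, for Traf1 (r = 0.983), Ifih1, the RNA sensor MDA5, for Relb (0.979), Nod1, a peptidoglycan sensor, for Nfkbie (0.977), Irf1, an interferon-induced factor, for Birc3 (0.977), Ly6c1 for Nfkbia (0.976) and Mxd1 for Tnfaip3 (0.963). It was Ifi208 for Nfkb2 (0.960), the kinase Jak1 for Nfkb1 (0.911), the chemokine Cxcl10 for Nfkbiz (0.880) and Zfp36, which destabilises cytokine transcripts, for Rel (0.817).

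Around the 10 genes, the rest of the pathway was described by 7 lists. For M1 against M0 naive, 13.1% of all genes tested rose and 14.7% fell, and small list counts can lie near such shares. In M1, the 19 measured of 23 cytokine, chemokine and surface targets had a median difference of 4.60 from M0 naive, against -0.12 for all genes, and 16 rose and 2 fell. Il6 and Il1a, which were above background on no M0 naive array, were at least 978-fold and at least 528-fold higher in M1. Ptgs2, the inducible cyclooxygenase, was also called higher, but it was above background on only 1 M0 naive array, so the size of its rise is uncertain. The chemokine gene Ccl4 (-1.66 ± 0.17) and Cd83 (-0.95 ± 0.19) fell. Of 14 survival, stress and other targets 11 rose and none fell, led by Saa3 (4.53 ± 0.20), Ier3 (3.84 ± 0.21) and Irf1 (3.70 ± 0.19). Of the 4 remaining subunit and IkB genes, Nfkbib (2.37 ± 0.21), Bcl3 (1.76 ± 0.20) and Rela (1.31 ± 0.21) rose.

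Upstream of the dimers, 13 of 24 adaptors and kinases rose in M1 and 1 fell, where 13.1% of all genes tested rose and 14.7% fell. Malt1, a paracaspase of the CARD complexes, rose by 4.47 ± 0.22, the kinase Ripk2 by 4.13 ± 0.24 and Irak3, an inhibitory IRAK, by 2.87 ± 0.24, while Irak1 fell (-1.02 ± 0.26). Of 5 IkB kinase genes, Ikbkg (2.05 ± 0.20) and Tbk1 (1.56 ± 0.41) rose. Among 17 other deubiquitinases and inhibitors 7 rose, led by the RNase gene Zc3h12a (2.89 ± 0.23), and 3 fell, among them Cyld (-0.97 ± 0.25). Of 5 receptors that feed the noncanonical arm, Cd40 (5.43 ± 0.21) and Ltbr (0.64 ± 0.17) rose and Tnfrsf11a, the receptor RANK, fell (-1.77 ± 0.17). Relative to M2, 18 of 19 measured cytokine and surface targets were higher in M1 and none lower, led by Il1b (11.74 ± 0.20), and all 4 remaining subunit and IkB genes were higher. Of all genes tested there, 15.5% were higher and 15.4% lower.

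In M2, 8 of 15 measured cytokine, chemokine and surface targets fell relative to M0 naive and 4 rose, with a median of -0.86 against -0.07 for all genes. Of all genes tested, 7.04% fell and 4.88% rose. Cxcl1, above background on no M2 array, was at least 7.71-fold lower, Il1b (-3.43 ± 0.20) and Ccl4 (-2.69 ± 0.17) fell as well. Ptgs2, whose size of change is uncertain for the same reason, the nitric oxide synthase gene Nos2 and Cd274, which encodes PD-L1 (1.12 ± 0.26), were among those that rose. Among the remaining subunit and IkB genes Nfkbid (-0.87 ± 0.21) and Bcl3 (-0.69 ± 0.20) fell. Of the 24 adaptors and kinases 3 rose, with Traf5 at 2.62 ± 0.22, and 3 fell, with Irak3 at -1.09 ± 0.24. Of 17 deubiquitinases and inhibitors 3 fell, with Pdlim2 at -1.91 ± 0.21. Survival targets moved both ways, with 4 higher, such as Ier3 (2.49 ± 0.21), and 3 lower, such as Saa3 (-3.21 ± 0.20).

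In M0 post-sepsis, Ccl5, a T cell and monocyte chemokine, fell by 7.40 ± 0.18 (adjusted p = 2.61e-12), the largest change among the listed genes in that comparison. Il1b (-3.05 ± 0.20, above background on 3 of 4 M0 post-sepsis arrays) and Cd274 (-2.45 ± 0.26) fell as well, and of 14 measured cytokine and surface targets 5 fell and 1 rose, with a median of -0.18 against 0.05 for all genes. Survival and stress targets had 8 of 14 lower, with Saa3 (-4.89 ± 0.20) and Tnfrsf1b (-2.23 ± 0.24), and 2 higher, Plau (2.44 ± 0.26) and Bcl2l1 (1.34 ± 0.20). Of 17 deubiquitinases and inhibitors 7 fell and none rose, led by Zc3h12a (-1.72 ± 0.23), Birc2 (-1.03 ± 0.27) and Tnip1 (-1.02 ± 0.21). Map3k8 (-2.03 ± 0.29) and Map3k14, the NIK kinase of the noncanonical arm (-0.81 ± 0.23), were the only adaptors or kinases of 24 that passed, and both fell. That count lies near the share of all genes tested, of which 5.91% were lower and 5.99% higher. Bcl3 (-1.36 ± 0.20) and Ikbke (-1.17 ± 0.28) fell, and none of the 5 noncanonical receptors changed by the test.

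In TAM post-sepsis no gene of the 7 lists passed against TAM naive, while between 0 and 5 genes a list had an unadjusted limma p under 0.05. The cytokine, chemokine and surface targets had a median of -0.83 against -0.05 for all genes. With slide as a block 11 of 21 of these fell and none rose, led by Ccr7 (-2.73 ± 0.43), Cd83 (-2.35 ± 0.27) and Ccl3 (-2.08 ± 0.29). Of all genes tested with that block, 26.8% were lower and 8.14% higher. Ccr7 is also a dendritic cell marker in the sums given above. In that fit Nfkbid (-2.06 ± 0.27), Bcl2a1d (-1.67 ± 0.20), Cd40 (-1.33 ± 0.22) and Malt1 (-1.25 ± 0.28) fell, while Tbk1 (1.06 ± 0.29) and Pim3 (1.01 ± 0.24) rose. Of 4 remaining subunit and IkB genes 1 fell, as did 1 of 21 adaptors and kinases. Among 14 survival targets 2 fell and 1 rose, and among 5 noncanonical receptors 1 fell and 1 rose. Of 17 deubiquitinases and inhibitors 2 fell and 3 rose, and of 5 IkB kinase genes 1 rose. In none of these lists did a larger share fall than among all genes. As for the 10 genes, no gene passed in the blocked fit without TAM naive replicate 3, which rested on 1 array of each group on slides 2 and 3.

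**Figure D4:**
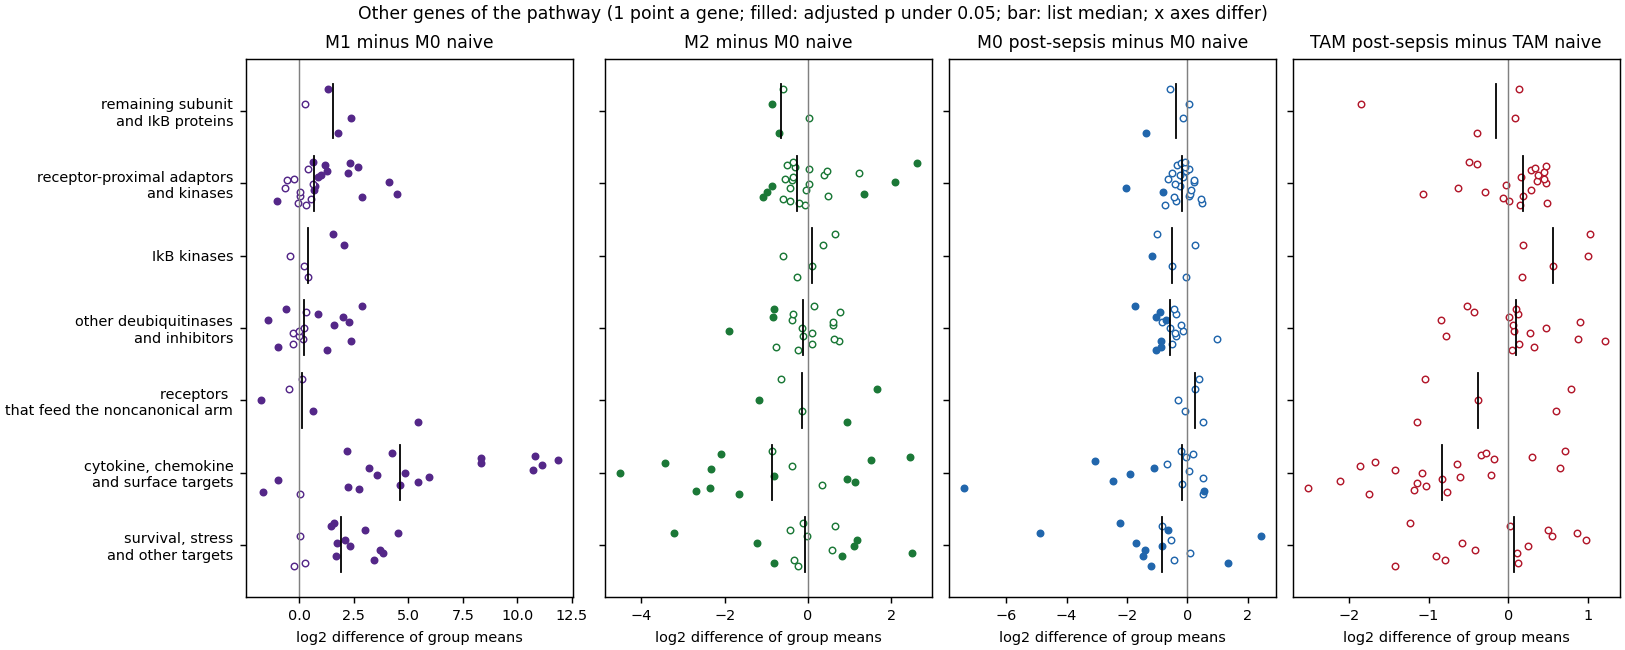
Differences of group means on the log2 scale (x axis, ranges differ) for the measured genes of 7 pathway lists (rows), with 1 point per gene, filled where the adjusted p was under 0.05, and a bar at each list's median. The cytokine, chemokine and surface targets have medians of 4.60 for M1 minus M0 naive, -0.86 for M2, -0.18 for M0 post-sepsis and -0.83 for TAM post-sepsis minus TAM naive.

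Against M0 naive, TAM naive had 11 of 20 measured cytokine and surface targets higher and 3 lower, with Il6 at least 235-fold and Cxcl3 at least 63.8-fold higher. Of all genes tested, 15.1% were higher and 20.5% lower. The survival, stress and other targets did not follow, with 2 of 14 higher, 8 lower and a median of -1.16. Signalling genes were also mostly lower. Of 24 adaptors and kinases 18 were lower, such as Ripk1 (-2.28 ± 0.27), of 5 IkB kinase genes 3, with Ikbke at -4.33 ± 0.37, and of 17 deubiquitinases and inhibitors 13, with Tnfaip8l2 at -5.86 ± 0.28. The macrophage markers were lower in 8 of 9 cases, with a median of -5.73.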

How the data were processed

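The deposited scanner files hold, per the file headers, Agilent Feature Extraction 10.7.3.1 output of 1-colour arrays with probe positions on mm9, while the submitters' processing notes name version 12.5. The values used were the processed signal, an intensity that the authors' scanner software had background-subtracted, per the file headers. The deposited value table was not used because its columns matched other samples' scanner files.

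The log2 of the deposited intensity was taken, and the 75th percentile over the spots of each array that were no controls was subtracted. Spots flagged as non-uniform were then left out and the spots of a probe averaged. Each gene was represented by its probe with the highest mean signal, and unnamed probes stood for themselves. A probe was kept when 3 or more arrays of a compared group measured it well above background. The test was limma's moderated test (version 3.58.1, under R 4.3.3; two-sided, Benjamini-Hochberg over all genes kept, threshold 0.05). The TAM comparison used its 7 arrays, the culture comparisons 16, and the comparison of TAM naive with M0 naive and the interaction 23. At-least folds were taken against the dimmest probe well above background on each array. The number of arrays limits the precision, and there is no count depth.

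The 10 genes and all lists were chosen with earlier results of these data known. All 10 are named, with the most alike gene for each and, per pathway list and comparison, at most the 3 called genes with the largest rise and the 3 with the largest fall. Marker lists were for macrophages, T and NK, B and dendritic cells, neutrophils, fibroblasts, endothelium, melanocytes and epithelium. The alternatives were quantile normalization, normexp background correction with an offset of 50, other filters, slide and replicate number as blocks, the mean over probes, other sets of arrays in the fit, the excluded array kept in and each array left out; the slide block without TAM naive replicate 3 was added after seeing the data. The fit was tested on simulated data, with 100 genes given each change. In the TAM comparison it recovered 1% of genes given a log2 change of 1 and 49% of those given 2. For M0 post-sepsis against M0 naive it recovered 28% and 73%. Recovery under the adjusted threshold depends on the share of changed genes. In the TAM data 10963 of 28911 genes had an unadjusted limma p under 0.05, so the simulated rates need not hold there. A lack of calls in TAM therefore does not show a lack of change.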

Additional observations from a re-analysis of the deposited data

Results flagged for a closer look

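Chance alone sets apart about 1 in 20 groups by the test for a single distant array (Dixon's test), and 2 of the 50 groups of 4 arrays tested here were set apart. In M0 naive cultures, replicate 3 measured -0.76 for Nfkb1 while the other 3 arrays measured 0.35 to 0.42. In TAM post-sepsis, replicate 2 measured -3.32 for Rel while the other 3 arrays measured -2.48 to -2.35. The sepsis effect on Relb in TAM lay 1.24 log2 units above that in M0 cultures, and the interaction itself passed the limma test (adjusted p = 0.0462), though not under 16 of 24 alternatives.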

How the results depend on the processing

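Over the 10 genes and all comparisons, 1210 values were recomputed. Of these 1099 kept their direction and side of the threshold, 54 lost a call, 28 gained one and 29 turned direction, and no called change turned. The called genes that passed under every alternative were 4 of 7 for M0 post-sepsis, 6 of 8 for M1 and 4 of 5 for M2 against M0 naive, 8 of 8 for M1 against M2, 1 of 5 for TAM naive against M0 naive and 0 of 1 for the interaction. For TAM post-sepsis against TAM naive, the genes called on the whole array numbered 10091 with slide as a block, 3729 with all 23 arrays in the fit and 0 to 9792 when an array was left out, with 4, 1 and 0 to 0 of the 10 among them. Whether the replicate numbers pair the samples cannot be told, since no label tied a sample to its animal. Of 22 same-numbered pairs, 7 had deviations correlated over 0.1 (range -0.525 to 0.681). The replicate block gave 9902 genes and 1 of the 10 for TAM and 0 for the interaction. For M0 post-sepsis, 4 of the 10 were called with all 23 arrays in the fit, and 6 to 9 when an array was left out. For TAM naive against M0 naive, 2 were called with only those arrays in the fit and 3 to 7 when an array was left out. The interaction called 3131 genes under quantile normalization, 515 with only the compared arrays, 766 with the excluded array kept in and 938 to 5863 when an array was left out, against 1884. Relb left it (0 of the 10) with no filter, slide as a block, the mean over probes, only the compared arrays or the excluded array kept in, and 0 to 2 were called when an array was left out. The cause of these differences was not tested.

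These turned direction, none of them called. In TAM, Nfkb1 measured 0.00099 with the replicate block, 0.39 with the excluded array kept in, -0.35 to 0.34 when an array was left out and 0.25 with slide as a block without TAM naive replicate 3, where Relb measured 0.085. With the excluded array kept in, Nfkb2 measured 0.25, Relb 0.38, Nfkbia 0.019 and Birc3 0.058. When an array was left out, Nfkb1 ran from -0.16 to 0.23 for M2 against M0 naive, Rel from -0.057 to 0.26 for M1 against M2, and Nfkbiz from -0.021 to 0.43 for TAM naive against M0 naive, with -0.028 under quantile normalization. In the interaction, Rel measured 0.56 under quantile normalization, 0.50 with the excluded array kept in and -0.50 to 0.63 when an array was left out, Tnfaip3 0.36 with that array kept in and -0.51 to 0.38 when one was left out, and Nfkbia -0.13 to 0.67.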

Other observations

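Several probes carried the name of the same gene and did not always measure the same difference. For Relb, the probe at chr7:20203058-20203117 (mm9), annotated to a separate transcript, measured -0.39 in M1, 0.33 in M2 and 0.05 in M0 post-sepsis relative to M0 naive, where the probe used measured 0.88, -1.10 and -1.58. For Birc3, the probe at chr9:7856162-7856221 (mm9) measured 1.57 in M1, -0.14 in M2 and -1.50 in M0 post-sepsis relative to M0 naive, against 2.62, 0.31 and -1.36 for the probe used. For Nfkb1, the other probe measured 0.94 in M2 relative to M0 naive, where the probe used measured 0.12. For M1 minus M2 that other probe measured -0.17, against 0.37 for the probe used. The Relb probe at chr7:20203058-20203117 measured -0.71 for M1 minus M2, against 1.97 for the probe used. The remaining unused probes of Relb and Birc3 measured 1.87 and 1.71 there. These probes were not tested separately.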
